A study of Mus musculus with 6 samples.

Results

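Ccr7, Tcf7, Lef1, Klf2, S1pr1, Id2, Id3, Bach2 and Satb1 encode homing receptors and nuclear factors that distinguish naive and central memory T cells from effector cells. These 9 genes were chosen by name, with earlier results of these data known. They are 9 of 34906 genes with counts in the series, and all 9 were among the 17610 genes tested. RNA was measured by mRNA sequencing in CD4+ T cells of the C57BL/6J strain, with 3 wild-type (WT) libraries and 3 Wtap knockout (Wtap KO) libraries. WTAP holds the m6A writer complex in the nucleus, where it methylates adenosines within mRNA. Per the labels' protocols, which are worded alike for both genotypes, cells were given 4-hydroxytamoxifen (1 µM, 24 h) to deplete Wtap, then stimulated through CD3 (1 µg/mL) and CD28 (2.5 µg/mL) with IL-12 (10 ng/mL) and an antibody to IL-4 (10 µg/mL), which are Th1 conditions, for 40 to 48 h. They were then expanded in IL-2 (200 IU/mL) and collected on day 4. The labels name neither the Cre line nor the deleted part of Wtap, nor the age or sex of the animals. They also do not say that each library had its own animal, so p-values here measure the spread between libraries, which may be partly technical.

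CCR7 is the chemokine receptor that brings naive and central memory T cells into lymph nodes, and S1PR1 is the sphingosine-1-phosphate receptor that lets them leave again. In resting T cells the forkhead factor FOXO1 maintains KLF2, a zinc finger factor that drives S1pr1, and signals of activation lower this circuit. TCF1 (encoded by Tcf7) and LEF1 are related HMG box factors of naive and memory cells. ID2 and ID3 inhibit E proteins by binding to them, with ID3 linked to memory and follicular cells and ID2 to effector cells. BACH2 represses effector genes, and SATB1 organises chromatin in developing and naive T cells.

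Because Wtap belongs to the m6A writer, GGACT, a common form of the sequence at which m6A is placed, was located in the most abundant coding transcript of each gene (GENCODE M21, GRCm38). All 10 matches in the 3 genes whose RNA passed the test (Ccr7, Id2 and Id3) are printed with 10 bases on each side, with the GGACT in capitals and positions counted from the transcript's first base.
Ccr7-201, position 196, coding, chr11:99145974-99145978, minus strand: ataccacggtGGACTacaccctgta
Ccr7-201, position 1105, coding, chr11:99145065-99145069, minus strand: agctcttcaaGGACTtgggctgcct
Ccr7-201, position 1232, 3′ UTR, chr11:99144938-99144942, minus strand: tcccctgcccGGACTacaaggacct
Id2-201, position 319, coding, chr12:25095770-25095774, minus strand: agatcgccctGGACTcgcatcccac
Id2-201, position 503, 3′ UTR, chr12:25094564-25094568, minus strand: tggcatttggGGACTtttttttttc
Id2-201, position 684, 3′ UTR, chr12:25094383-25094387, minus strand: tctccggcctGGACTgtgataccgt
Id2-201, position 987, 3′ UTR, chr12:25094080-25094084, minus strand: tgaaccttgtGGACTctttaattag
Id3-201, position 291, 5′ UTR, chr4:136143787-136143791, plus strand: gtcctagagaGGACTctataagagt
Id3-201, position 803, 3′ UTR, chr4:136144917-136144921, plus strand: tgggaccctgGGACTctgggaccct
Id3-201, position 925, 3′ UTR, chr4:136145039-136145043, plus strand: cccgagagaaGGACTgaacttgggt
In Ccr7-201 and in Id2-201 a GGACT began 16 bases past the last base of the stop codon.

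Id2-201 held 3.15 GGACT per kb and Id3-201 2.35 per kb, at percentiles 97.3 and 91.8 of the 11229 coding transcripts compared, 1 per tested gene, which had a median of 1.01 per kb. Ccr7-201 held 1.52 per kb (percentile 74.2), Bach2-207 1.41 (percentile 70.1) and Tcf7-201 1.21 (percentile 61.0). Satb1-204 held 0.578 per kb, Klf2-201 0.541, S1pr1-201 0.328 and Lef1-203 none. Of all compared transcripts, 85.8% held at least 1 GGACT. A match is a description of the letters and not a measured m6A site. In the RefSeq promoter windows (GRCm38.p6, 250 bases before to 50 after the start), 15 windows of 7 of the genes were present, without Ccr7 and S1pr1. The KLF letters CACCC or GGGTG were in 13 of these 15 windows, against 57.5% of all windows, and the forkhead letters TGTTTAC or GTAAACA in 1 of 15, against 3.65%. The E box CACCTG or CAGGTG was in 4 windows (20.2% of all), the TCF/LEF letters ATCAAAG or CTTTGAT in 0 (3.73%) and GGAAA or TTTCC in 11 (61.3%). Some windows of Lef1 overlap each other, as do some of Satb1, so a few matches were counted in more than 1 window.

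The libraries held 32363139 to 44039467 estimated counts. Total Wtap RNA was at 94.3 to 114 CPM (counts scaled to a common library size, with TMM factors) in WT and 114 to 120 CPM in Wtap KO, so it does not check the deletion, whose site the labels do not give. Wtap KO 3 alone looked male: the Y-linked Kdm5d reached 63.3 CPM there, while the remaining 5 libraries held 2.43 to 3.53 CPM. Xist was at 3.81 CPM in Wtap KO 3 and at 1980 to 4448 CPM in the remaining 5, so Wtap KO 3 did not share an animal with Wtap KO 1 or 2. Whether the other libraries came from separate animals is not known. The T cell identity genes Cd3e, Cd3d, Trac, Cd4, Cd5 and Lck averaged 378 to 742 CPM in both groups. Of 6 of them 1 passed, Cd4, which fell from 542 to 378 CPM. Over all genes tested, 9.23% passed. Of 2 CD8 T cell markers 1 rose, Cd8b1, from 10.1 ± 0.610 to 16.5 ± 2.55 CPM (SD, n = 3; edgeR adjusted p = 0.0268), and Cd8a was at 0.834 ± 0.603 and 1.85 ± 0.853 CPM. Their sum was 7.18 to 7.79 TPM (a level scaled by transcript length) in WT, against 11.4 to 13.9 TPM in Wtap KO. No marker of NK cells, macrophages, erythroid cells and platelets, or regulatory T cells passed, and no granulocyte marker was tested. The NK list summed to 0.626 to 1.75 TPM in WT, against 1.90 to 3.04 TPM in Wtap KO, and the regulatory T cell list to 8.01 to 12.8 against 14.8 to 17.5 TPM.

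Of the 9 genes, 2 rose in Wtap KO (Ccr7 and Id2), 1 fell (Id3) and 6 did not pass (edgeR's quasi-likelihood test, Benjamini-Hochberg adjusted p under 0.05 over all genes), beside 9.23% of all genes called, 5.75% higher and 3.49% lower. At an unadjusted p under 0.05 in edgeR there were 4, with Bach2 as the fourth, beside 26.3% of all genes. The groups did not overlap in 4 of the 9 genes (those 3 and Bach2), beside 32.7% of all genes tested. As the 9 genes were chosen with earlier results of these data known, these shares are not an unbiased comparison with all genes. The median log2 fold change of the 9 genes was 0.01 and that of all genes 0.00 to 2 decimals. Their median absolute log2 fold change was 0.13, against 0.27 for all genes. The set as a whole had no common direction.

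**Figure D1:**
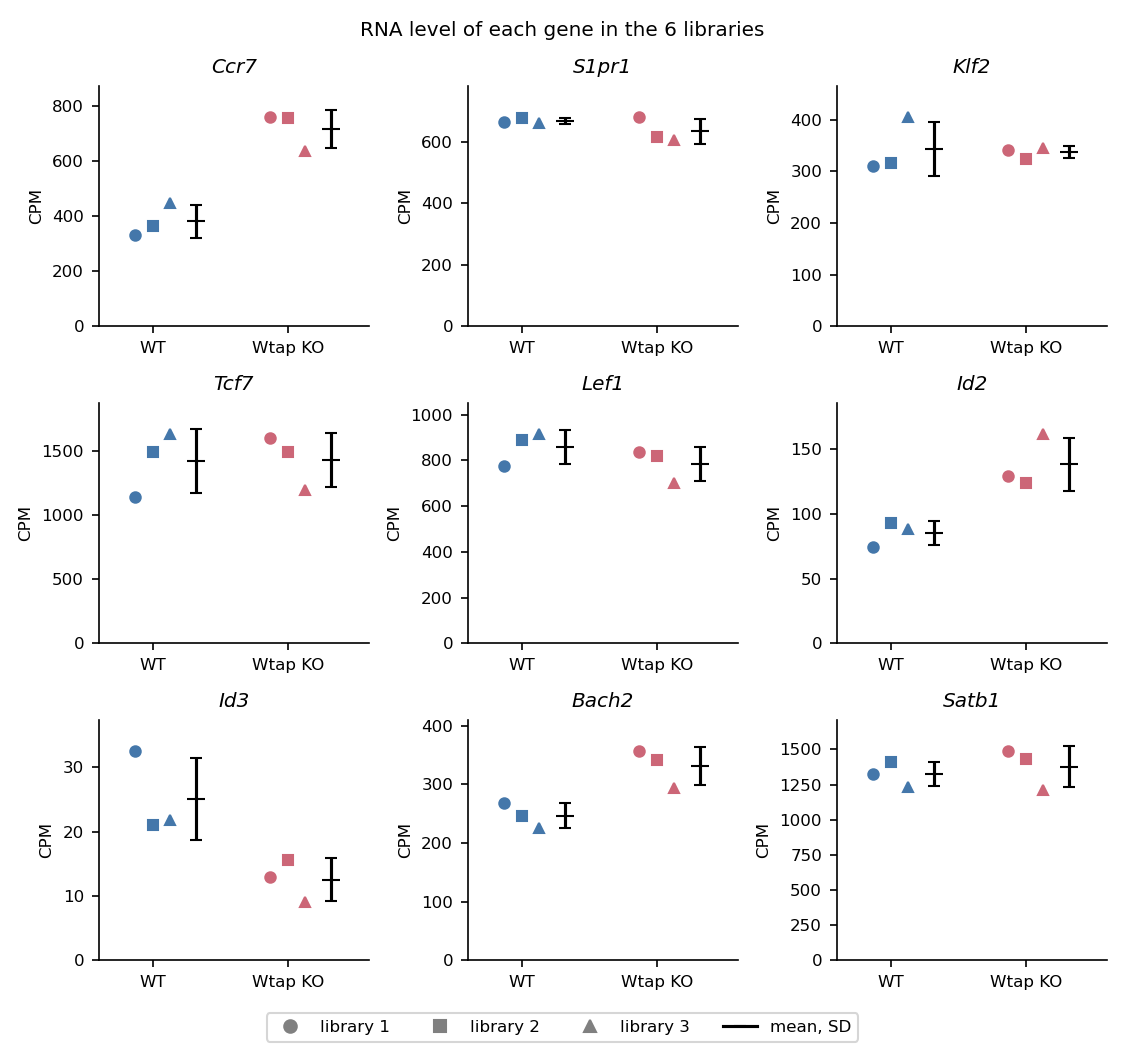
RNA level in CPM (y axis from 0) of each of the 9 genes in the 3 WT (blue) and 3 Wtap KO (red) libraries, with marker shapes for library numbers and bars for mean and SD. Ccr7 and Id2 were higher and Id3 lower in every Wtap KO library than in any WT library, Bach2 was also separated (225 to 268 against 295 to 356 CPM), and the other 5 genes overlapped.

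Ccr7 (ENSMUSG00000037944, GRCm38 chr11:99144196-99155077, minus strand) was at 332, 364 and 448 CPM in WT 1, 2 and 3. It was at 758, 755 and 637 CPM in Wtap KO 1, 2 and 3. The lowest Wtap KO library, the male Wtap KO 3, lay above the highest WT library. The mean was 381 ± 60.1 CPM (SD, n = 3) in WT, against 717 ± 69.0 CPM in Wtap KO. The log2 fold change was 0.91 ± 0.13 (SE), a 1.88-fold rise, and its 95% confidence interval ran from 0.60 to 1.22 on the log2 scale (edgeR adjusted p = 0.00681). Ccr7 remained called in each of 17 other settings, with an adjusted p of at most 0.0401 (edgeR, without WT 2), and it was the only one of the 9 genes to do so.

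CCR7 is also carried by mature dendritic cells and B cells, so their markers were read beside it. Of 14 dendritic cell markers 10 were tested, of which 4 rose and 0 fell, with a median log2 fold change of 1.51. Over all genes tested, 5.75% were called higher and 3.49% lower. Fscn1, Flt3, Itgax and Ccl22 reached the level of the filter on low counts in all 3 libraries only in Wtap KO. Such entries can raise the count and the median. The list summed to 11.8 to 37.7 TPM in WT, and 45.7 to 61.0 TPM for Wtap KO. Ccr7 itself was at 176 to 228 TPM in WT, and 354 to 417 TPM for Wtap KO. Cd74 rose from 5.24 ± 4.15 to 29.5 ± 5.94 CPM (SD, n = 3), H2-Aa from 1.41 ± 0.977 to 6.18 ± 1.23 CPM, Batf3 from 1.75 ± 0.886 to 6.49 ± 1.39 CPM and Fscn1 from 0.0367 ± 0.0423 to 0.456 ± 0.145 CPM. Of those that did not pass, Zbtb46 was at 0.757 ± 0.0958 and 1.22 ± 0.233 CPM without overlap, Itgax at 0.191 ± 0.224 and 0.467 ± 0.186 CPM, and Ccl22 at 0.263 ± 0.315 and 0.836 ± 0.260 CPM. Xcr1 was at 0.592 ± 0.0585 and 0.744 ± 0.207 CPM, and H2-Ab1 at 10.3 ± 9.12 and 5.46 ± 0.657 CPM. Il12b and Cd209a had 0 counts in all 6 libraries, and Flt3, Siglech and Clec9a were under 0.5 CPM in each. Of 7 tested B cell markers 1 rose (Ebf1, from 0.1435 to 0.651 CPM), and Ebf1 too met the filter on low counts only in Wtap KO. The B cell list summed to 2.46 to 4.07 TPM in WT, and 4.18 to 5.71 TPM for Wtap KO, and Pax5 was under 0.5 CPM in every library. The part of these cells, or of CD8 T cells, in the Ccr7 level was not tested, and in bulk RNA more cells with Ccr7 and more Ccr7 RNA per cell cannot be told apart.

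S1pr1 (ENSMUSG00000045092, chr3:115710433-115715072) was at 664, 678 and 661 CPM in WT and 680, 616 and 606 CPM in Wtap KO. The groups overlapped, and the log2 fold change was -0.07 ± 0.09 (SE), with a 95% confidence interval of -0.29 to 0.14 (edgeR adjusted p = 0.674). The ratio of Ccr7 to S1pr1, in TPM and chosen with these values known, was 0.792, 0.849 and 1.07 in WT and 1.76, 1.94 and 1.66 in Wtap KO. In an exact two-sided permutation test this gave p = 0.1, the smallest that 3 libraries against 3 can give. Klf2 (ENSMUSG00000055148, chr8:72319033-72321656), the factor that drives S1pr1, was at 311, 316.5 and 404 CPM in WT and 340, 323 and 346 CPM in Wtap KO. The groups overlapped, with a log2 fold change of -0.03 ± 0.12 (SE; 95% confidence interval -0.31 to 0.24; edgeR adjusted p = 0.908). The sign turned, to 0.10, without WT 3, the highest of the 6, and also in TPM, while an offset on GC content gave -0.25 (edgeR adjusted p = 0.133).

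Id2 and Id3, which block the same E proteins, moved in opposite directions. Id2 (ENSMUSG00000020644, chr12:25093799-25097140, minus strand) was at 74.8, 92.9 and 88.5 CPM in WT and 130 (129.5), 124 and 162 (161.5) CPM in Wtap KO, with no overlap and with Wtap KO 3 highest. It rose 1.62-fold, a log2 fold change of 0.70 ± 0.14 (SE; edgeR adjusted p = 0.0184). Id3 (ENSMUSG00000007872, chr4:136143497-136145755, plus strand) was at 32.5, 21.04 and 21.8 CPM in WT and 13.0, 15.7 and 9.03 CPM in Wtap KO. WT 1 was the highest of the 6 and Wtap KO 3 the lowest. The log2 fold change of Id3 was -1.0 ± 0.24 (SE; edgeR adjusted p = 0.0351), and its coefficient of variation was 25.6% in WT and 26.6% in Wtap KO, the widest of the 9 genes in both groups.

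Each of these calls was lost when any 1 of 4 libraries was left out. Without WT 2, Wtap KO 1, Wtap KO 2 or Wtap KO 3 the adjusted p of Id2 in edgeR was 0.0520, 0.0599, 0.0510 and 0.0560, and that of Id3 was 0.0670, 0.131, 0.0622 and 0.0997. With WT 1 and Wtap KO 3 both left out, which was chosen after seeing the data, the log2 fold change was 0.48 for Id2 (adjusted p = 0.0130) and -0.58 for Id3 (adjusted p = 0.0262) in edgeR, so the Id3 change was smaller by over 1.5 times without these 2 libraries. The ratio of Id2 to Id3 in TPM, chosen with these values known, was 2.34, 4.46 and 4.25 in WT and 10.3, 7.94 and 18.9 in Wtap KO, with no overlap (exact two-sided permutation p = 0.1, the smallest possible here).

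**Figure D2:**
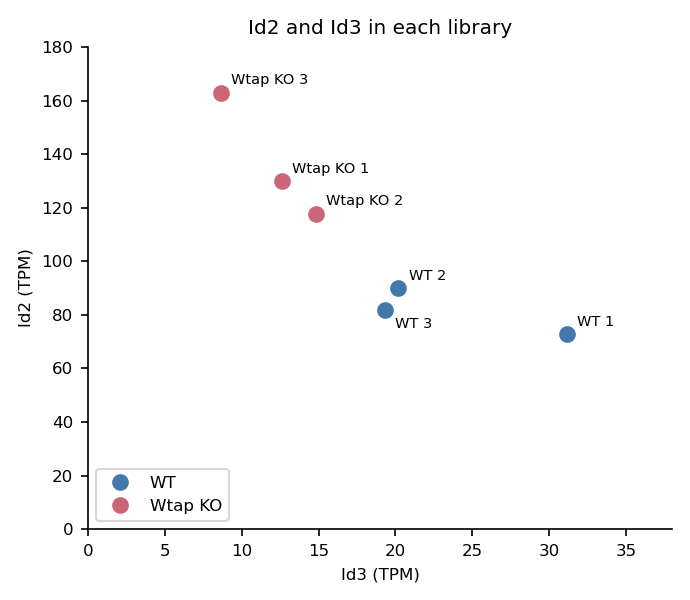
Id2 (y axis) against Id3 (x axis) in TPM in each of the 6 libraries, WT in blue and Wtap KO in red. The Wtap KO libraries lie above 117 TPM of Id2 and below 15 TPM of Id3, and the WT libraries below 90 and above 19, with WT 1 and Wtap KO 3 at the 2 ends.

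The E protein genes themselves were measured beside their inhibitors. Of 7 genes of E proteins and Id inhibitors 5 were tested, 2 rose (Id2 and Tcf4) and 1 fell (Id3), and Id1 and Id4 were under 0.5 CPM in every library. Tcf12, which encodes the E protein HEB, averaged 177 ± 5.09 CPM (SD, n = 3) in WT, against 142 ± 11.2 CPM in Wtap KO, without passing (edgeR adjusted p = 0.0836). It passed with the DESeq2 Wald test and with an offset on GC content, at an adjusted p of at least 0.0385. Tcf3, which encodes E2A, was at 46.5 ± 4.68 and 47.9 ± 4.29 CPM (edgeR adjusted p = 0.865). Tcf4, encoding the E protein E2-2 that is known from plasmacytoid dendritic cells, rose from 5.18 ± 0.834 to 8.48 ± 0.146 CPM (edgeR adjusted p = 0.0339) and was no longer called without WT 2, WT 3 or any single Wtap KO library (adjusted p in edgeR up to 0.144).

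Tcf7 and Lef1 did not pass. Tcf7 (ENSMUSG00000000782, chr11:52252371-52283014, minus strand) was at 1143, 1495 and 1629 CPM in WT and 1602, 1488 and 1196 CPM in Wtap KO. WT 1 and Wtap KO 3 were the low libraries, and the groups covered nearly the same range. The log2 fold change of Tcf7 was 0.01 ± 0.16 (SE; 95% confidence interval -0.35 to 0.36; edgeR adjusted p = 0.987), and it turned to -0.13 without WT 1. Lef1 (ENSMUSG00000027985, chr3:131110471-131224356, plus strand) was at 775, 889 and 914 CPM in WT and 836, 821 and 700.3 CPM in Wtap KO, with overlap. For Lef1 the log2 fold change was -0.13 ± 0.11 (SE; 95% confidence interval -0.39 to 0.13; edgeR adjusted p = 0.518). Of 17 TCF/LEF factors and co-regulators, 15 were tested and 1 rose, Bcl9l, a co-activator that bridges beta-catenin to its partners, from 57.4 ± 17.8 to 103 ± 12.2 CPM (SD, n = 3). Bcl9l was no longer called without WT 2 or any single Wtap KO library (adjusted p in edgeR up to 0.145), with the replicate block (edgeR adjusted p of 0.0501) and with an offset on gene length. Ctnnb1, which encodes beta-catenin, was at 170 ± 18.0 and 160 (159.9) ± 17.3 CPM (edgeR adjusted p = 0.697).

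Bach2 (ENSMUSG00000040270, chr4:32238804-32586108, plus strand) was at 268, 246 and 225 CPM in WT and 356, 342 and 295 CPM in Wtap KO. The groups did not overlap, but its log2 fold change of 0.43 ± 0.11 (SE; 95% confidence interval 0.17 to 0.68) narrowly missed the threshold (edgeR adjusted p = 0.0507). It passed in 5 of 17 other settings, among them without WT 1, the highest WT library (edgeR adjusted p = 0.0210), and its adjusted p in edgeR reached 0.194 without Wtap KO 2. Prdm1, a gene that BACH2 is known to repress, averaged 15.4 ± 3.91 CPM (SD, n = 3) in WT, against 8.73 ± 1.43 CPM in Wtap KO, and also missed (edgeR adjusted p = 0.0503), and it was singled out after its values were seen. Satb1 (ENSMUSG00000023927, chr17:51736187-51833290, minus strand) was at 1328, 1408 and 1235 CPM in WT and 1486, 1431 and 1212 CPM in Wtap KO. The groups overlapped, with a log2 fold change of 0.06 ± 0.11 (SE; 95% confidence interval -0.20 to 0.31; edgeR adjusted p = 0.801).

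**Figure D3:**
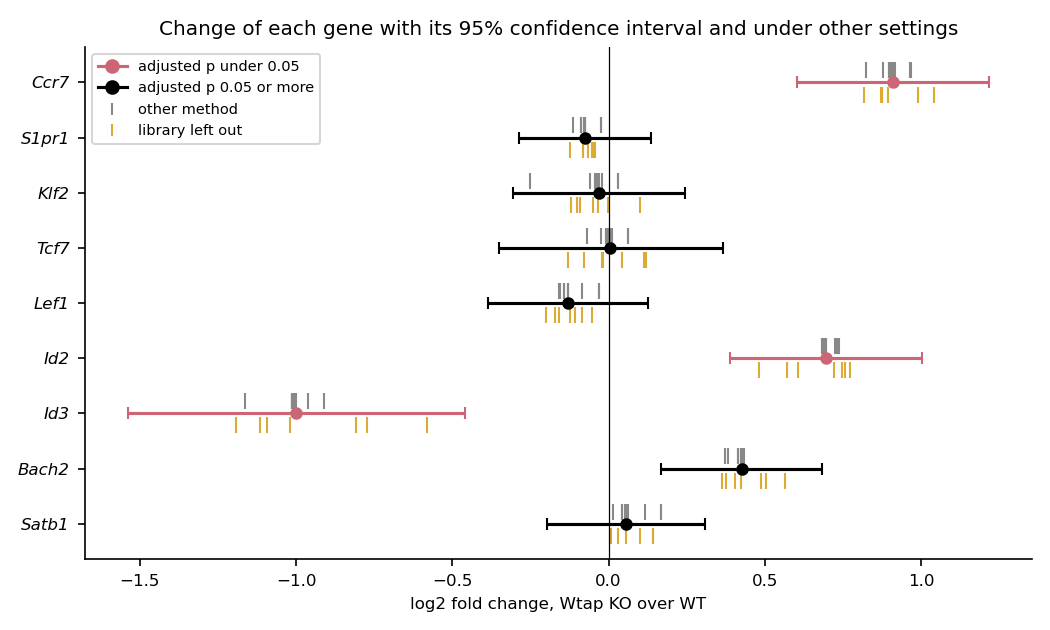
Log2 fold change of Wtap KO over WT for each of the 9 genes with its 95% confidence interval (red where the adjusted p was under 0.05, black otherwise). Grey ticks mark other methods and yellow ticks left-out libraries; those of Ccr7 lie between 0.82 and 1.04, while those of Tcf7 and Klf2 lie on both sides of 0.

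Per unit length, Ccr7 moved up in the order of the genes. In WT, Tcf7 (597 ± 97.4 TPM, SD, n = 3) and Lef1 (484 ± 27.6) stood above Satb1 (348 ± 34.5), followed by S1pr1 (221 ± 6.81), Ccr7 (199 ± 26.5) and Klf2 (193 ± 24.4), whose libraries overlapped, and then Id2 (81.6 ± 8.58), Bach2 (33.7 ± 2.81) and Id3 (23.5 ± 6.59). In Wtap KO, Ccr7 (389 ± 32.1 TPM) stood beside Satb1 (391 ± 45.6), with overlapping libraries, and above every library of S1pr1 (218 ± 17.0) and Klf2 (197 ± 12.9). Tcf7 (621 ± 88.4) and Lef1 (474 ± 47.7) had the highest means, and Id2 (137 ± 23.3), Bach2 (45.5 ± 4.06) and Id3 (12.03 ± 3.14) lowest. The TPM of Lef1 includes 140 (139.5) TPM in WT, and 149 TPM for Wtap KO from Lef1-208, a retained-intron transcript of 345 bases with under 5% of the gene's counts. Without it, Lef1 was at 345 ± 27.3 TPM in WT, overlapping Satb1, and at 326 ± 27.9 TPM in Wtap KO, overlapping Satb1 and below every library of Ccr7. The place of Lef1 above Satb1, and in Wtap KO above Ccr7, thus rested on Lef1-208. In WT, every library of Lef1 stayed above every library of Ccr7 without it.

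The transcripts behind the genes were compared as shares of each gene's estimated counts. Ccr7, Klf2 and S1pr1 have 1 annotated transcript each. In the other 6 genes 13 transcripts were tested and 0 passed (limma on log-ratios of each transcript against all others of the gene, adjusted over all transcripts), beside 0.295% of all tested transcripts. At an unadjusted p under 0.05 there was 1 of the 13, beside 11.08% of all tested transcripts, so the members did not exceed the background. It was Satb1-203, which made up 14.6%, 18.8% and 15.04% of Satb1 counts in WT and 24.0%, 24.7% and 22.3% in Wtap KO. Its groups did not overlap, and its log2 ratio to the rest of the gene differed by 0.70 ± 0.19 (SE; adjusted p = 0.269 in limma). Satb1-203, Satb1-204 and Satb1-208 share a coding length of 2295 bases but begin in separate first exons, at chr17:51826434-51826566, chr17:51833163-51833290 and chr17:51832470-51832672. Their last exons begin together and end at different places, so the share of Satb1-203 can move with either end.

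The main transcripts of the other genes kept within a few percent of their WT share. Lef1-203, with a coding length of 996 bases, made up 75.9% ± 1.06 (SD, n = 3) of Lef1 counts in WT and 76.3% ± 1.11 in Wtap KO, and Lef1-201, which starts further upstream and codes over 1194 bases, 17.4% ± 1.19 and 15.7% ± 0.514. Tcf7-201 made up 92.0% ± 1.27 and 92.3% ± 0.695 of Tcf7, and Tcf7-202 has the same coding length of 912 bases. Id2-201 made up 67.3% ± 0.901 and 68.0% ± 1.51 of Id2, beside the single-exon Id2-203 with 32.6% ± 0.928 and 31.9% ± 1.56. Id3-201 made up 90.1% ± 2.43 and 90.1% ± 2.08 of Id3, and the retained-intron Id3-203 9.68% ± 2.49 and 9.75% ± 1.99. Bach2-207 made up 90.8% ± 1.64 and 91.6% ± 1.53 of Bach2. Each of these differences in share was smaller than the spread between libraries, except for Lef1-201, which did not pass (limma adjusted p = 0.730).

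**Figure D4:**
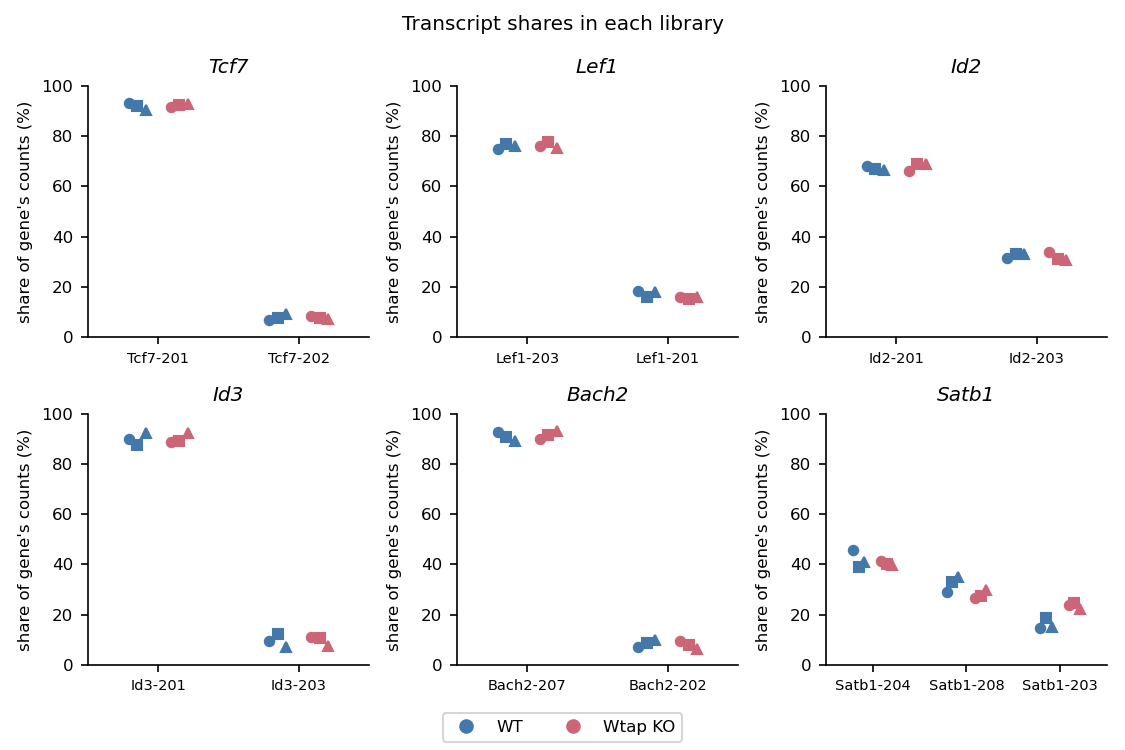
Share of each gene's estimated counts, in percent, held by the tested transcripts of 6 genes in each WT (blue) and Wtap KO (red) library. Satb1-203 lies at 14.6% to 18.8% in WT and 22.3% to 24.7% in Wtap KO, and in the other transcripts the 2 groups lie close together.

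The wider naive and memory program was read from 7 gene lists. The counts called in these lists, here and above, stand beside 9.23% of all genes called, 5.75% higher and 3.49% lower. Of 20 naive and central memory genes, 2 rose (Ccr7 and Igfbp4), 1 fell (Id3) and 17 did not pass, with a median log2 fold change of -0.05. Il7r, the survival receptor of resting T cells, was at 655 ± 51.9 (SD, n = 3) and 567 ± 79.9 CPM (edgeR adjusted p = 0.336). Igfbp4, a gene of naive CD4 cells, rose 1.575-fold, from 351 ± 47.3 to 553 ± 42.4 CPM (edgeR adjusted p = 0.0157). It lost the threshold without WT 2, Wtap KO 1 or Wtap KO 2 (edgeR adjusted p up to 0.0758) and with an offset on GC content.

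Of 18 genes of lymph node homing and egress 14 were tested, 2 rose and 0 fell, with a median log2 fold change of -0.03. Beside Ccr7 this was Sgpl1, the lyase that degrades sphingosine-1-phosphate, at 29.0 ± 3.59 and 43.3 ± 2.93 CPM (SD, n = 3; edgeR adjusted p = 0.0270). Sgpl1 was no longer called without WT 2 or any single Wtap KO library (adjusted p in edgeR up to 0.110), nor in TPM. The ligand genes Ccl19 and Ccl21a were under 0.5 CPM in every library. Of 14 KLF and FOXO factors 0 passed in edgeR. At an unadjusted p under 0.05 in edgeR there were 4, Foxp1 among them, beside 26.3% of all genes tested, so the list lay near the background. In other edgeR settings 2 passed with no filter on low counts or with an offset on GC content, and 1 with length-scaled counts, without WT 1, without WT 3, or without both WT 1 and Wtap KO 3. With the DESeq2 Wald test 2 passed, and with limma in TPM 1. Foxp1, a factor of naive T cell quiescence, was at 436 ± 9.38 and 369.8 ± 19.8 CPM (edgeR adjusted p = 0.143). Foxo1 was at 305 ± 40.6 and 304 ± 20.3 CPM (edgeR adjusted p = 0.990).

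Of 17 quiescence genes and partners of BACH2 and SATB1, 16 did not pass, and the median log2 fold change of the list was 0.29. Of 20 effector and effector memory genes 18 were tested, 3 rose (Bhlhe40, Ccl5 and Id2) and 0 fell, with a median log2 fold change of 0.39, the highest of the 7 lists. Cx3cr1 and Havcr2 reached the level of the filter on low counts in all 3 libraries only in Wtap KO. Such entries can raise this median and its place among the lists. Bhlhe40, a factor of cytokine-producing helper cells, rose 3.04-fold, from 55.7 ± 12.3 to 169 ± 12.3 CPM (edgeR adjusted p = 0.00177). The chemokine Ccl5 rose from 18.8 ± 3.09 to 33.2 ± 6.41 CPM (edgeR adjusted p = 0.0254), and lost the threshold without Wtap KO 1 or Wtap KO 2 (edgeR adjusted p up to 0.115). Among naive-type genes the rise of Ccr7 thus stood beside a rise of Igfbp4 and a fall of Id3. Among effector-type genes Bhlhe40, Ccl5 and Id2 rose. Most members of both lists did not pass.

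**Figure D5:**
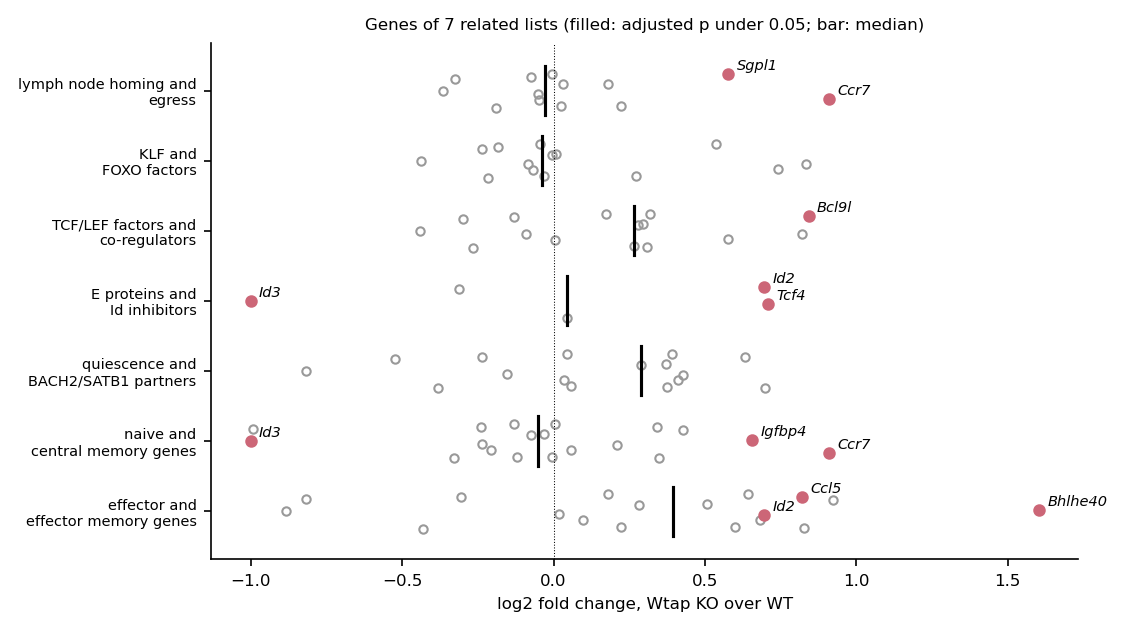
Log2 fold change of Wtap KO over WT (x axis) for tested genes of 7 related lists, 1 point per gene reported here, filled and named where the adjusted p was under 0.05, with a bar at the median over all tested genes of each list. No list has more than 3 named points, and the median of the effector list, 0.39, lies furthest from 0. Cx3cr1 and Havcr2, which reached the level of the filter on low counts in all 3 libraries only in Wtap KO, can raise that median.

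Across the 6 libraries the genes did not move as one block. On log2 CPM, Ccr7 correlated with Id2 (Pearson r = 0.86), Bach2 (r = 0.82) and inversely with Id3 (r = -0.81), but weakly with Tcf7 (r = 0.31), Satb1 (r = 0.28) and Klf2 (r = 0.14). Tcf7 and Lef1, which are related in structure, correlated at r = 0.83. Only 6 points in 2 groups stand behind each value, so that a difference between the groups alone gives a high r. Within its group, Wtap KO 3 lay below the mean in 7 of the 9 genes and Wtap KO 1 above it in 8. The 5 genes whose profile was most like that of Ccr7, among the 8338 genes that averaged 10 CPM or more, were Wdr62, Mad2l1bp, Irf2bp2, Bola2 and Lsm10, with r from 0.996 to 0.998. All 5 were called higher in Wtap KO, with log2 fold changes of 0.49, 0.98, 0.73, 0.67 and 1.14. Since they were picked by likeness to Ccr7 in the same libraries, this shared direction follows from the choice.

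Exons of other annotated genes overlap Lef1 (Gm43352), Bach2 (Bach2os) and Satb1 (Gm36931 and Gm6934), at up to 13.8 CPM, and the strand setting of the counting is not given in the sources used here. No other gene overlaps Ccr7, Klf2, S1pr1, Id2 or Id3 in the annotation.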

How the data were processed

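The submitters' processing notes name kallisto 0.44.0, DESeq2 and the mouse build GRCm38 (mm10). kallisto matches read pairs (50 bp) to transcripts and divides reads that fit several. The authors deposited estimated counts per transcript, which need not be whole numbers, and TPM values, which correct counts for transcript length and sum to the same total in each library. The index annotation and strand setting: not given in the sources used here. Transcripts were matched to GENCODE M21 (99.15% matched, with 99.71% to 99.75% of counts), summed per gene and rounded. Genes were tested with edgeR 4.0.16 in R 4.3.3 (TMM, filterByExpr, robust quasi-likelihood test, genotype only), p-values were adjusted over all genes, and a call is an adjusted p under 0.05. Standard errors come from the log2 fold change and the F value. Transcript shares were tested with limma 3.58.1 on log2 ratios of each transcript against all others of the gene, with 0.5 counts added, for transcripts with a mean share of at least 5% in genes with a mean of at least 50 counts. On simulated data, 84.0% of 200 genes changed 2-fold were called, with 12 false calls, over 17160 genes. The changed genes were drawn from those with a mean above 5 CPM, so the recovery of genes below that level was not tested. Of 200 log-ratios shifted 4-fold, 37.0% were called with 4 false calls over 23423 transcripts, so shifts of transcript shares are often missed. Alternatives were DESeq2 1.42.0, other normalizations, filters and units, offsets on length and GC content, a replicate block and left-out libraries. The 9 genes, the lists and the rule for named genes (list members that passed, 7 partners that did not, and the 5 genes most like Ccr7) were chosen with earlier results of these data known. A few of the genes in these lists are not reported here.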

Additional observations from a re-analysis of the deposited data

How the results depend on the processing

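The number of genes called was 1626, 2581 with the DESeq2 Wald test, 1061 with the replicate block, 2402 without both WT 1 and Wtap KO 3, and 361 to 2282 with 1 library left out. Higher genes made up 62.2% of the calls, against 73.8% in log2(TPM + 1) and 73.3% in log2(TPM + 0.1) tested with limma, 67.3% with the replicate block, 57.3% with an offset on gene length, and 52.5% both with the DESeq2 Wald test and with an offset on GC content. Of the 9 genes, 3 were called, and 1 to 4 with 1 library left out; the 1 was Ccr7, without WT 2, Wtap KO 1, Wtap KO 2 or Wtap KO 3. Over the 7 lists together, 10 genes were called, against 17 with the DESeq2 Wald test, 19 with an offset on GC content, 18 without both WT 1 and Wtap KO 3, and 2 to 18 with 1 library left out. Transcripts called by share were 69, 104 with a share of at least 1%, 0 with the replicate block and 0 to 29 with 1 library left out; the cause was not tested. Id3 did not pass with limma on log2(TPM + 1) (adjusted p = 0.0566) or log2(TPM + 0.1) (adjusted p = 0.0549).

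Signs turned only for values near 0. The log2 fold change of Tcf7 was -0.007 with DESeq2 size factors and with the DESeq2 Wald test, -0.002 with length-scaled counts, -0.024 with an offset on gene length, -0.068 with an offset on GC content and -0.018 without both WT 1 and Wtap KO 3, and ran from -0.131 to 0.120 with 1 library left out. That of Klf2 was 0.030 in both TPM settings, -0.253 with an offset on GC content, -0.101 to 0.1 with 1 library left out, and -0.121 without both WT 1 and Wtap KO 3. That of Foxo1 was 0.053 and 0.055 in the TPM settings, 0.002 with the replicate block and -0.064 to 0.111 with 1 library left out and -0.098 without both WT 1 and Wtap KO 3, and that of Tcf3 -0.198 with an offset on GC content and -0.041 to 0.116 with 1 library left out. Log2 ratios of transcripts with 1 library left out ran from -0.301 to 0.009 for Bach2-202, -0.187 to 0.230 for Id3-203, -0.009 to 0.079 for Lef1-203, -0.164 to 0.031 for Satb1-204, -0.079 to 0.162 for Tcf7-201 and -0.162 to 0.079 for Tcf7-202.

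The labels give both groups the numbers 1 to 3. Same-numbered libraries deviated together with r = -0.304, 0.122 and 0.140, and other pairs with r from -0.45 to 0.351. With 3 libraries per group these values depend on one another, so they cannot tell whether the numbers pair the libraries. With the replicate block Ccr7, Id2 and Id3 were still called, and Bcl9l, Sgpl1 and Tcf4 were not. Depth limits the cell type markers that are under 0.5 CPM.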
